A study of Mus musculus with 28 samples.

Results

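The effect of tamoxifen on healthy muscle was measured in the tibialis anterior (TA), the muscle at the front of the shin, of WT mice. The labels for genotype, treatment and cohort gave 4 WT mice on tamoxifen and 4 on placebo, 8 of the 28 mice of the series. All were C57BL/6N mice 8 weeks old, and the drug was supplied in the diet. Its dose and duration are not given in the sources used here. The series set out to compare the drug in mouse models of centronuclear myopathy (CNM), a group of inherited muscle diseases in which nuclei lie in the middle of the fibers. Besides the WT mice, 4 placebo and 4 tamoxifen mice of the *Dnm2* S619L/+ genotype were used, which belong to the same cohort and carry a point mutation in 1 copy of the gene for the membrane-fission GTPase dynamin 2. A second cohort gave 4 placebo and 4 tamoxifen mice of the *Bin1* mck-/- genotype, which lack the membrane-curving protein Bin1 in skeletal muscle. No WT mouse of that cohort received the drug, and its library protocol differed (350 ng of input RNA, 8 min of fragmentation) from that of the WT mice (300 ng, 2 min), which was also used for *Dnm2* S619L/+ mice. A WT group on the drug shows what it does to muscle that carries no disease mutation.

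Tamoxifen binds estrogen receptors, which are transcription factors of the nuclear receptor family, and acts like estrogen in some tissues, such as bone, and against it in others. In a whole muscle, most RNA comes from muscle fibers, whose mitochondria burn fatty acids, ketone bodies and pyruvate, and the rest from the connective tissue, vessels, nerves, motor endplates and immune cells between them. Bone, cartilage and tendon have matrix genes of their own, and the shin muscle lies directly against bone and ends in a tendon.

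The deposited values are reads counted per gene in strand-specific libraries of polyadenylated RNA. Placebo mice had 15586333 to 109710886 reads on genes and tamoxifen mice 20989876 to 46556589. Levels are given as CPM, the reads of a gene per 1000000 reads of a library, after scaling of the libraries with edgeR's TMM factors, which were 0.812 to 0.8999 in placebo and 1.01 to 1.07 in tamoxifen mice. Genes of mitochondrial DNA took 19.6 to 25.7% of the reads in placebo and 16.5 to 18.98% in tamoxifen mice. *Xist*, the RNA of the inactive X chromosome, marked placebo mice 1 and 4 and tamoxifen mice 1 and 2. Placebo mice 2 and 3 and tamoxifen mice 3 and 4 had reads of Y-linked genes instead, so both groups held 2 mice of each kind, and the results are also given within each kind. The labels do not say whether the mice shared a litter or cage, and p-values measure the spread between these mice.

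Tamoxifen changed the level of a large part of the transcriptome of WT muscle, with large rises and small falls. Of 15439 genes tested, 2441 rose (15.8%) and 1832 fell (11.9%), together 27.7%, at an adjusted p under 0.05 from edgeR's quasi-likelihood test with Benjamini-Hochberg adjustment. The median log2 fold change was 1.30 among genes that rose and −0.49 among those that fell, against −0.04 over all genes tested. A change of at least 2-fold was found for 11.3% of genes, with 1574 higher (10.2%) and 164 lower (1.06%). At least 8-fold rises numbered 264 and at least 4-fold falls 18. Of the genes that rose, 834 had a mean of less than 1 CPM in placebo mice. The levels of the groups did not overlap for 31.4% of all genes tested (17.6% with tamoxifen higher and 13.8% with tamoxifen lower), and for 3749 of the 4273 genes called. Without tamoxifen mouse 2 the count of 4273 was 2769, and 2733 of these genes were among the 4273. The falls depended more on single mice than the rises, with 1015 falls without tamoxifen mouse 2, 1071 without placebo mouse 2 and 1172 without placebo mouse 3, against 1754, 1859 and 1999 rises.

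Of the 10 largest rises by the naming rule, 4 belonged to the list of bone matrix markers (*Tnn*, *Mmp13*, *Ibsp* and *Spp1*) and 2 to that of osteoclasts (*Mmp9* and *Acp5*). Promoter sequences are shown first for the 3 bone, osteoclast and protease genes that rose and whose promoter held the word AACCACA, the core of the sites bound by RUNX factors, since *Runx2* is the factor that starts bone formation and *Runx1* is one of the genes that rose with the smallest p in WT muscle. Each sequence holds the 250 bases before the transcription start of the RefSeq gene model, 5′ to 3′ on the strand of the gene, on GRCm38.p6. Capitals mark AACCACA and, in *Mmp13*, also TGACTCA, a word bound by AP-1 factors (searched as TGANTCA).
Mmp13, chr9:7272264-7272513, plus strand: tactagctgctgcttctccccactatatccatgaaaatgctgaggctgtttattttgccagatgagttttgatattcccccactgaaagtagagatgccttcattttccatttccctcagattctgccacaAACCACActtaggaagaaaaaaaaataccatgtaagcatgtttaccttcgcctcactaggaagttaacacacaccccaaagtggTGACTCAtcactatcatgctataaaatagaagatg
Spp1, chr5:104434861-104435110, plus strand: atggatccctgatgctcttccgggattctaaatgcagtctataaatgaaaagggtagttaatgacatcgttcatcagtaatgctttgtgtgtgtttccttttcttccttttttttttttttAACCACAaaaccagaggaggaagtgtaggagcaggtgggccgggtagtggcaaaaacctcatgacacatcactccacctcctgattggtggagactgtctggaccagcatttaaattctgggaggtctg
Runx2, chr17:44814628-44814877, minus strand: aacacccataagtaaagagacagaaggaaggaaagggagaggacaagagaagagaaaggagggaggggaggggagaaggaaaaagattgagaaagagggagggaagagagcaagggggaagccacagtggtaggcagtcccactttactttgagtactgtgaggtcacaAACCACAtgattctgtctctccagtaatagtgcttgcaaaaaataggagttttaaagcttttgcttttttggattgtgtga
In *Mmp13* the AACCACA word lay 119 to 113 bases and the TGACTCA word 35 to 29 bases before the start. The words lay 129 to 123 bases before the start in *Spp1* and 81 to 75 in *Runx2*. A promoter window was found for 11242 of the genes tested (72.8%), on both strands of which AACCACA was present in 3.22%, TGANTCA in 4.44%, TCAAGGTCA, the word of the estrogen-related receptors, in 0.231%, and the full estrogen response element (GGTCA and TGACC with 3 bases between them) in 0. Of the 29 bone, osteoclast and protease genes that rose and had a window, 3 held AACCACA and 1 more, *Mmp3*, held TGANTCA alone. These words do not overlap each other, and a word in a window describes the sequence only.

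*Tnn* (ENSMUSG00000026725), which encodes tenascin-N, a matrix protein of bone and periosteum, had the largest rise by the naming rule used here. Its level in placebo mice 1 to 4 was 0.112, 0.0283, 0.0791 and 0.447 CPM, and in tamoxifen mice 592, 705, 332 and 379 CPM (log2 fold change 11.06 ± 1.09 SE, adjusted p = 9.05e-05 by edgeR). *Mmp13* (ENSMUSG00000050578), the collagenase of bone and cartilage, had 0.953, 0.0849, 0.158 and 0.715 CPM in placebo and 1122, 1159.7, 588 and 628 CPM in tamoxifen mice (log2 fold change 10.42 ± 0.96 SE, adjusted p = 0.000177 by edgeR). Both genes were close to 0 in every placebo mouse and above 300 CPM in every treated mouse, with mice 1 and 2, those with *Xist* reads, above mice 3 and 4. *Ibsp* (ENSMUSG00000029306), encoding bone sialoprotein, had 0.821, 0, 0.237 and 0.514 CPM against 475, 652, 172 and 200.4 CPM (log2 fold change 9.45 ± 1.11 SE, adjusted p = 0.000291 by edgeR). *Spp1* (ENSMUSG00000029304), encoding osteopontin, had 2.76, 1.73, 1.19 and 3.04 CPM against 705, 771, 212 and 414 CPM (log2 fold change 7.81 ± 0.81 SE, adjusted p = 0.000274 by edgeR). The treated mice again stood apart from all placebo mice, and treated mouse 3 was the lowest for *Spp1* and *Ibsp*. Leaving out 1 placebo mouse raised the log2 fold change of *Tnn* to 11.77 (mouse 4) and that of *Ibsp* to 10.12 (mouse 1). In bulk RNA, more cells of a type and more RNA per cell cannot be told apart.

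The gene lists used here and below were chosen with earlier results of these data known, so their counts are a description and no test. The bone list itself holds *Tnn*, *Mmp13*, *Ibsp* and *Spp1*. Of the 23 osteoblast and bone matrix markers tested, 17 rose and none fell, with a median log2 fold change of 4.41, against 15.8% of all genes that rose and a median of −0.04 for all genes. The transcription factors of bone formation were among them. *Runx2* (ENSMUSG00000039153) was at 0.892, 1.05, 1.03 and 1.25 CPM in placebo and 32.1, 36.9, 19.96 and 26.7 CPM in tamoxifen mice (log2 fold change 4.71 ± 0.60 SE, adjusted p = 0.000291 by edgeR). *Sp7*, which acts after *Runx2* in osteoblasts, went from 0 to 0.179 to 14.5 to 29.99 CPM, and *Dlx5*, a homeobox factor of bone, from 0 to 0.0304 to 2.26 to 8.22 CPM. Every treated mouse lay above every placebo mouse for all 3 factors. The osteocalcin genes *Bglap* and *Bglap2*, which mark mature osteoblasts and are near-identical copies of each other, stayed low at 0.989 to 1.63 and 1.55 to 2.51 CPM in treated mice, from 5 and 2 reads in all placebo mice together (adjusted p = 0.000739 and 0.000421 by edgeR). *Alpl*, the alkaline phosphatase needed for mineral, was already at 28.4 to 55.5 CPM in placebo mice and rose to 104 to 229.8 CPM. Among osteocyte markers, 2 of 6 tested rose, *Dmp1*, a mineral-binding matrix protein, from 0.142 to 0.2904 to 2.12 to 10.2 CPM and *Pdpn* from 3.998 to 5.297 to 8.33 to 14.6 CPM. The osteocyte list also held a fall, that of the chemokine receptor gene *Ackr3* (log2 fold change −0.71, adjusted p = 0.0369 by edgeR), whose groups overlapped and whose call was lost in 6 of 8 fits without 1 WT mouse (adjusted p up to 0.126 by edgeR).

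Genes of osteoclasts, the cells that resorb bone, rose as well, with 10 of 14 markers higher, against 15.8% of all genes. None was lower, and the median log2 fold change was 3.14. The filter on low counts keeps a gene that is high in treated mice alone, so members near 0 in placebo mice could only rise. Under a filter of more than 10 reads in 90% of mice, the rises numbered 6 for osteoclast, 8 for bone matrix and 2 for cartilage markers. *Acp5* (ENSMUSG00000001348), the tartrate-resistant acid phosphatase used to stain osteoclasts, had 1.47, 0.764, 0.474 and 2.301 CPM in placebo and 284, 487, 75.2 and 163 CPM in tamoxifen mice (log2 fold change 7.47 ± 0.84 SE, adjusted p = 0.000291 by edgeR). *Mmp9*, a gelatinase of osteoclasts and leukocytes, had 1.52, 0.792, 0.316 and 0.469 CPM against 222, 349, 51.7 and 122 CPM, and *Ctsk*, the cathepsin that digests bone collagen, 7.26, 6.34, 4.98 and 7.24 CPM against 421, 637, 127 and 238 CPM. For all 3 genes treated mouse 2 was the highest and treated mouse 3 the lowest, and the groups did not overlap. Without placebo mouse 1 the log2 fold change of *Mmp9* was 8.21. The proton pump subunit gene *Atp6v0d2* and the fusion receptor gene *Dcstamp*, which serve ruffled border and cell fusion, went from 0.0791 to 0.134 to 6.73 to 42.1 CPM and from 0 to 0.0566 to 0.895 to 5.73 CPM. *Tnfsf11*, encoding the osteoclast-forming cytokine RANKL, had 2 reads in all placebo mice together and 549 in treated mice, and its receptor gene *Tnfrsf11a* had a log2 fold change of 2.28 (adjusted p = 0.00390 by edgeR). Markers of bone marrow were measured beside these genes. Only 3 of 13 neutrophil and marrow markers passed the filter on low counts and none of them was called, and their summed level was 2.18 to 4.02 CPM in placebo and 2.55 to 13.04 CPM in tamoxifen mice, the highest in treated mouse 3. Of 9 erythroid markers 3 rose, against 15.8% of all genes, and none fell (median log2 fold change 1.07). Their summed level of 368 to 1575 CPM in placebo mice overlapped with 873 to 2772 CPM in treated mice. The part of these cells in the bone genes was not tested.

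**Figure D1:**
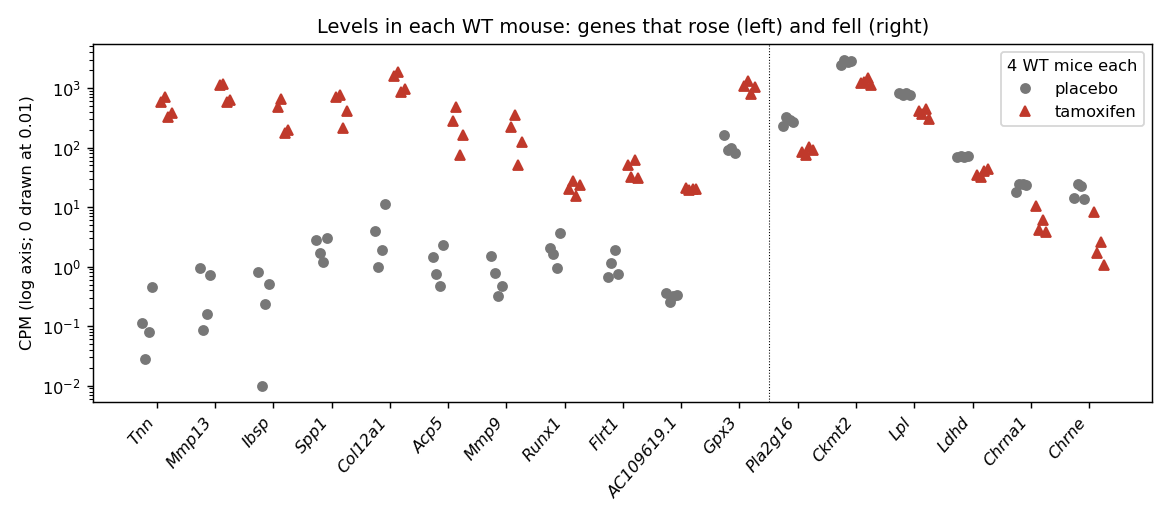
Level of 17 genes in each WT mouse, in CPM on a log axis, with gray circles for the 4 placebo mice and red triangles for the 4 tamoxifen mice and values of 0 drawn at 0.01. For the 11 genes left of the dotted line every treated mouse lies above every placebo mouse, and for the 6 genes on the right every treated mouse lies below.

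Cartilage and tendon markers rose by smaller medians than those of bone and osteoclasts. Of 14 cartilage markers 7 rose, against 15.8% of all genes, and none fell (median log2 fold change 1.31). Without placebo mouse 2 or 3 the number of cartilage markers that rose was 4. Of 12 tendon markers 9 rose and none fell (median 1.73). *Col11a1*, a fibril collagen of cartilage and bone, went from 1.29, 0.198, 0.791 and 6.03 CPM in placebo to 486, 499, 234 and 214 CPM in tamoxifen mice (log2 fold change 7.31 ± 0.84 SE, adjusted p = 0.000345 by edgeR). *Acan*, encoding the proteoglycan aggrecan, went from 0.0791 to 0.804 to 19.6 to 44.1 CPM, while *Col2a1*, the main collagen of cartilage, reached 2.45 to 7.23 CPM. *Sox9*, the factor that drives cartilage formation, did not pass the test (log2 fold change 0.48, adjusted p = 0.159 by edgeR). In tendon, *Tnmd*, which encodes tenomodulin, had 1.44, 0.255, 0.8697 and 8.93 CPM in placebo and 28.2, 41.5, 20.2 and 25.1 CPM in treated mice (log2 fold change 3.23 ± 0.71 SE, adjusted p = 0.00591 by edgeR), and *Fmod*, encoding fibromodulin, 21.1, 1.08, 7.91 and 128 CPM against 609.9, 843, 370.1 and 619.9 CPM. Placebo mouse 4 was the highest of the placebo mice for *Col11a1*, *Acan*, *Tnmd* and *Fmod*, and remained below every treated mouse. Without it the log2 fold changes of *Col11a1*, *Acan*, *Tnmd* and *Fmod* were 8.65, 7.38, 4.87 and 5.88, and that of *Col2a1* was 4.84. The call of *Fmod* was lost without placebo mouse 1 or 3 (adjusted p up to 0.0544 by edgeR). *Scx*, the tendon transcription factor, went from 0.594 to 2.703 to 3.95 to 5.42 CPM (log2 fold change 1.57, adjusted p = 0.00583 by edgeR).

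Most collagens and most enzymes that build and cut the matrix rose. The lists share members, so the same rise can count in several of them. *Col1a2* is in the bone and collagen lists, *Col14a1* in those of tendon and collagens, and *Mmp13* in those of bone and proteases. *Fmod* is in the tendon and proteoglycan lists, and *Lum* and *Dcn* in those of proteoglycans and fibro-adipogenic progenitors. Of 29 collagen genes 22 rose, against 15.8% of all genes, and none fell (median log2 fold change 2.204). The collagen list summed to 1742 to 3159.9 CPM in placebo and 16909 to 34318 CPM in tamoxifen mice. *Col1a2* and *Col3a1*, which encode chains of the main fibril collagens of connective tissue, rose from 215 to 438 to 4509 to 9271 CPM and from 383 to 602 to 4429 to 8542 CPM. *Col12a1*, a collagen on the surface of fibrils, had the largest rise of the list, from 4.03, 0.9904, 1.897 and 11.1 CPM to 1596, 1855, 864 and 948 CPM (log2 fold change 8.12 ± 0.76 SE, adjusted p = 0.000233 by edgeR). *Col14a1*, a related surface collagen, rose by a smaller step with a small error, from 11.3 to 14.4 to 31.1 to 58.4 CPM (log2 fold change 1.79 ± 0.19 SE, adjusted p = 0.000169 by edgeR). Among matrix proteases and cross-linking enzymes 25 of 35 rose and none fell (median 1.92). They included *Mmp14*, a membrane-bound collagenase, from 9.65 to 16.4 to 255 to 569.6 CPM, *Lox*, the lysyl oxidase that cross-links collagen, from 4.499 to 9.38 to 102 to 175 CPM, and *Timp1*, an inhibitor of the proteases, from 0.395 to 1.41 to 22.4 to 55.2 CPM. Of 13 small leucine-rich proteoglycans, which bind collagen fibrils, 9 rose and none fell (median 2.17), among them *Lum* (lumican) from 36.5 to 43.2 to 473 to 791 CPM and *Aspn* (asporin) from 29.1 to 44.6 to 289 to 491 CPM. *Cthrc1*, a secreted protein of remodelled matrix, and *Edil3* and *Prss35*, a matrix adhesion protein and a protease-like protein, were among the largest or most precise rises (log2 fold changes 6.74, 7.65 and 9.18). Without placebo mouse 4 those of *Col12a1* and *Cthrc1* were 9.03 and 7.32.

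The list of TGF-beta and CCN genes holds members of the TGF-beta pathway, which drives matrix production, and secreted matrix proteins. Of its 21 genes tested 19 rose, against 15.8% of all genes, and the activity of the pathway was not measured. None was lower, and the median log2 fold change was 1.58. *Postn*, encoding periostin, a matrix target of the pathway, had 17.4, 11.8, 10.7 and 31.4 CPM in placebo and 2135, 2489, 1096 and 1345 CPM in tamoxifen mice (log2 fold change 6.62 ± 0.61 SE, adjusted p = 0.000213 by edgeR). *Ccn4* and *Thbs2*, matricellular proteins, went from 0.237 to 1.21 to 45.1 to 97.2 CPM and from 5.32 to 10.99 to 328 to 669 CPM, and the receptor gene *Tgfbr1* from 23.4 to 27.6 to 40.5 to 50.8 CPM. The fibro-adipogenic progenitors, the cells that make muscle connective tissue, are marked by 12 genes. Of these 3 rose, against 15.8% of all genes, and none fell (median −0.01). The 3 were *Lum*, *Dcn* (decorin) and the receptor gene *Pdgfra*, which went from 14.8 to 30.6 to 44.01 to 64.5 CPM, while *Cd34*, *Dpt* and *Pi16* of the same list did not pass the test (log2 fold changes −0.33, 0.18 and −0.35).

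**Figure D2:**
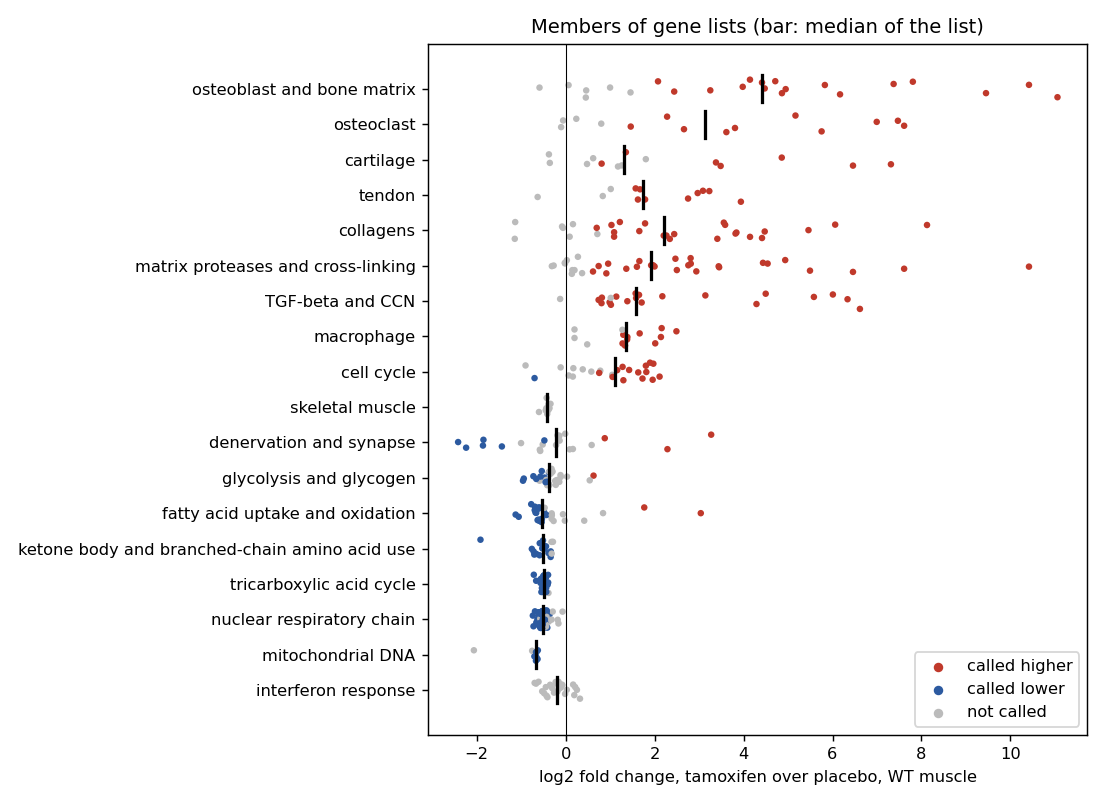
Log2 fold change of tamoxifen over placebo in WT muscle for the members of 18 gene lists, with 1 point per gene tested, red where it rose, blue where it fell and gray where it did not pass the test, and a black bar at the median of the list. The medians lie between 1 and 5 for bone, osteoclast, cartilage, tendon, collagen, protease, TGF-beta, macrophage and cell cycle genes and near −0.5 for the lists of energy metabolism.

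Macrophage markers rose in 10 of 14 cases, against 15.8% of all genes, with none lower and a median log2 fold change of 1.36. *Csf1r*, the receptor for the macrophage growth factor, had 17.001, 15.6, 11.5 and 10.03 CPM in placebo and 70.2, 92.2, 32.7 and 45.3 CPM in tamoxifen mice (log2 fold change 2.14 ± 0.38 SE, adjusted p = 0.00144 by edgeR), and the lysosomal marker *Cd68* went from 2.85 to 5.52 to 11.4 to 40.6 CPM. The summed level of the list was 100.3 to 163 CPM in placebo and 246 to 479.8 CPM in treated mice, without overlap. Without tamoxifen mouse 2 the number that rose was 4, and without placebo mouse 3 it was 6. Several genes of this list are also made by osteoclasts. Cell cycle genes remained at low levels but rose in 14 of 24 cases, against 15.8% of all genes (median 1.11). Among them were *Cdk1*, the kinase of mitosis, from 0.158 to 0.537 to 1.13 to 2.55 CPM, and *Top2a*, the topoisomerase of dividing cells, from 0.316 to 1.35 to 2.401 to 7.32 CPM. The fall in this list was *Aurka*, a mitotic kinase, from 4.41 to 5.76 to 2.97 to 3.34 CPM (log2 fold change −0.70, adjusted p = 0.0249 by edgeR), named after its values were seen and not called in 5 of 8 fits without 1 WT mouse (adjusted p up to 0.0628 by edgeR). The 14 rises became 9, 8 and 6 without placebo mouse 2, placebo mouse 3 or tamoxifen mouse 2. Of 12 satellite cell markers 2 were higher and 1 lower, near the 15.8% and 11.9% of all genes. *Pax7*, the factor that defines these stem cells, did not pass the test (log2 fold change −0.66 ± 0.36 SE, adjusted p = 0.177 by edgeR). No member of the 26 interferon response genes was called (median −0.20), and 1 of 20 clock genes was, against 27.7% of all genes.

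Hormones and their receptors were examined next, since tamoxifen acts on estrogen receptors. *Esr1* (ENSMUSG00000019768), the gene of estrogen receptor alpha, did not pass the test, at 18.9, 24.1, 29.6 and 20.1 CPM in placebo and 25.1, 18.8, 29.05 and 18.7 CPM in tamoxifen mice (log2 fold change −0.01 ± 0.17 SE, adjusted p = 0.972 by edgeR). *Esr2*, the gene of estrogen receptor beta, had 7 reads in all placebo mice together and 0 in treated mice, which allows up to 0.0225 CPM over the treated group (3 reads, counting error only), and was too low to be tested. *Gper1*, a membrane receptor for estrogen, had 2.21 to 4.11 and 1.61 to 3.97 CPM (log2 fold change −0.40, adjusted p = 0.355 by edgeR). Of 18 genes in the list of estrogen receptors and responsive genes, 5 rose and 2 fell (median log2 fold change −0.03), against 15.8% and 11.9% of all genes. *Greb1*, a cofactor induced by estrogen in breast cells, had 2.83, 0.736, 0.474 and 0.558 CPM in placebo and 10.8, 25.2, 10.03 and 13.5 CPM in treated mice (log2 fold change 3.48 ± 0.78 SE, adjusted p = 0.00595 by edgeR), and *Pgr*, the progesterone receptor gene, 0.0811, 0, 0 and 0 CPM against 1.67, 1.56, 1.51 and 0.794 CPM (log2 fold change 3.99 ± 0.92 SE, adjusted p = 0.000443 by edgeR). Both were low but higher in every treated mouse, and without placebo mouse 1 the log2 fold change of *Greb1* was 4.47. The others that rose were *Ccn5*, *Igfbp4* and *Xbp1*, and the 2 that fell were *Cited1*, at under 1 CPM, and *Cish*, a suppressor of cytokine signalling. *Cish* had 61.4, 3.93, 4.51 and 5.38 CPM in placebo and 1.85, 2.82, 2.87 and 3.59 CPM in treated mice, so that its log2 fold change of −2.77 ± 0.86 SE (adjusted p = 0.0317 by edgeR) rests largely on placebo mouse 1. Without that mouse it was −0.73 (adjusted p = 0.412 by edgeR). The call of *Cited1* was lost in 6 of 8 fits without 1 WT mouse (adjusted p up to 0.127 by edgeR).

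The estrogen-related receptors, which control genes of mitochondria and do not bind estrogen, were lower. Of 15 receptors and coactivators in this list 5 fell, against 11.9% of all genes, and none rose. The median log2 fold change was −0.43, beside −0.41 for the 12 markers of skeletal muscle, none of them called. *Esrrb* went from 9.41 to 14.6 to 4.004 to 6.78 CPM, *Esrrg* from 26.2 to 45.8 to 17.6 to 25.7 CPM and *Esrra* from 95.1 to 110.3 to 58.3 to 82.9 CPM (log2 fold changes −1.11, −0.83 and −0.43), and the call of *Esrrg* was lost without tamoxifen mouse 2 (adjusted p = 0.0506 by edgeR). *Perm1*, a muscle regulator that works with them, had 444, 511, 450.2 and 673 CPM in placebo and 281, 288, 304 and 242 CPM in treated mice (log2 fold change −0.90 ± 0.19 SE, adjusted p = 0.00299 by edgeR). The coactivator gene *Ppargc1a*, named after its values were seen, did not pass the test (log2 fold change −1.21 ± 0.47 SE, adjusted p = 0.0691 by edgeR), with placebo mouse 4 at 202 CPM against 50.4 to 62.5 CPM in the others. Without that mouse the log2 fold change was −0.51 (adjusted p = 0.348 by edgeR), and without placebo mouse 1 the gene was called (adjusted p = 0.0482 by edgeR).

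The list of growth control by myostatin, activin and IGF holds ligands, their carriers and antagonists, receptors and signal carriers inside the cell, and 8 of its 28 genes rose and none fell (median 0.22), against 15.8% of all genes that rose. *Igf1* (ENSMUSG00000020053), insulin-like growth factor 1, had 18.8, 23.8, 15.3 and 17.1 CPM in placebo and 205, 255, 167 and 118 CPM in treated mice (log2 fold change 3.31 ± 0.56 SE, adjusted p = 0.00150 by edgeR). *Inhbb*, a subunit of activin B, went from 0.0791 to 1.01 to 8.05 to 12.7 CPM, and *Fst*, encoding the activin antagonist follistatin, from 1.44 to 3.24 to 6.58 to 7.18 CPM. The carriers *Igfbp4* and *Igfbp3* rose from 33.4 to 45.1 to 101 to 163 CPM and from 17.2 to 22.5 to 47.1 to 73.5 CPM. Myostatin, *Mstn*, which limits muscle growth and was named after its values were seen, had a log2 fold change of 0.08 ± 0.22 SE (adjusted p = 0.817 by edgeR).

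The smallest p of the comparison belonged to 2 neighbours. The non-coding gene *AC109619.1* (ENSMUSG00000117901) had 0.365, 0.255, 0.316 and 0.335 CPM in placebo and 20.9, 19.3, 19.9 and 19.8 CPM in tamoxifen mice (log2 fold change 5.71 ± 0.21 SE, adjusted p = 1.03e-10 by edgeR). *Flrt1* (ENSMUSG00000047787), encoding a transmembrane adhesion protein that binds FGF receptors, had 0.679, 1.13, 1.897 and 0.759 CPM against 51.6, 31.5, 62.01 and 31.3 CPM (log2 fold change 5.40 ± 0.41 SE, adjusted p = 2.37e-05 by edgeR). The spread within each group was small beside the difference for both, and the treated mice did not split as they did for bone genes. In the GENCODE M21 models on GRCm38, *AC109619.1* lies next to *Flrt1* on the same strand and inside the RefSeq model of *Flrt1*, and both lie within *Macrod1* on the opposite strand, so that reads of *AC109619.1* and of *Flrt1* may come from 1 transcript. *Macrod1*, chosen for this reason, did not pass the test, with 106 to 151 CPM in placebo and 75.4 to 185 CPM in treated mice (log2 fold change 0.04, adjusted p = 0.914 by edgeR). Of 13 genes of the FLRT family and its partners 7 rose, against 15.8% of all genes, and none fell. Among those that rose, *Fgfr2*, an FGF receptor, went from 0.0791 to 0.469 to 39.5 to 82.7 CPM. The lncRNA *B230217O12Rik* was next in order of p, with 1.01, 1.22, 1.11 and 1.16 CPM in placebo and 5.43, 3.93, 7.44 and 5.63 CPM in treated mice (log2 fold change 2.26 ± 0.20 SE, adjusted p = 2.37e-05 by edgeR). Further genes with a small p were the transcription factor gene *Alx4*, the secreted factor *C1qtnf3* and *Brinp1*, with log2 fold changes of 3.84, 4.63 and 4.56.

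Most genes of energy metabolism were lower in treated mice, with list medians between −0.37 and −0.66 on the log2 scale. Of 73 nuclear genes of the respiratory chain 56 fell and none rose (median log2 fold change −0.52), against 11.9% of all genes that fell. The falls covered 31 of 37 genes of complex I, 6 of 9 of complex III, 8 of 11 of complex IV and 11 of 15 of complex V, the ATP synthase. In the tricarboxylic acid cycle, which feeds the chain, 23 of 24 genes fell and none rose (median −0.49). Ketone body and branched-chain amino acid use had 15 of 18 lower and none higher (median −0.50), and fatty acid uptake and oxidation 19 of 31 lower and 2 higher (median −0.54). Of 10 genes of mitochondrial DNA tested 8 fell and none rose (median −0.66), and reads of these genes can be shared with nuclear copies. Glycolysis and glycogen genes were lower in 10 of 30 cases and higher in 1 (median −0.37). The summed level of the nuclear respiratory chain list was 26484 to 28357 CPM in placebo and 16419 to 21888 CPM in treated mice. For comparison, the 12 markers of skeletal muscle itself had a median of −0.41 with none called, and 5 of them had groups that did not overlap, with tamoxifen lower as in 13.8% of all genes, a median close to those of the energy lists.

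**Figure D3:**
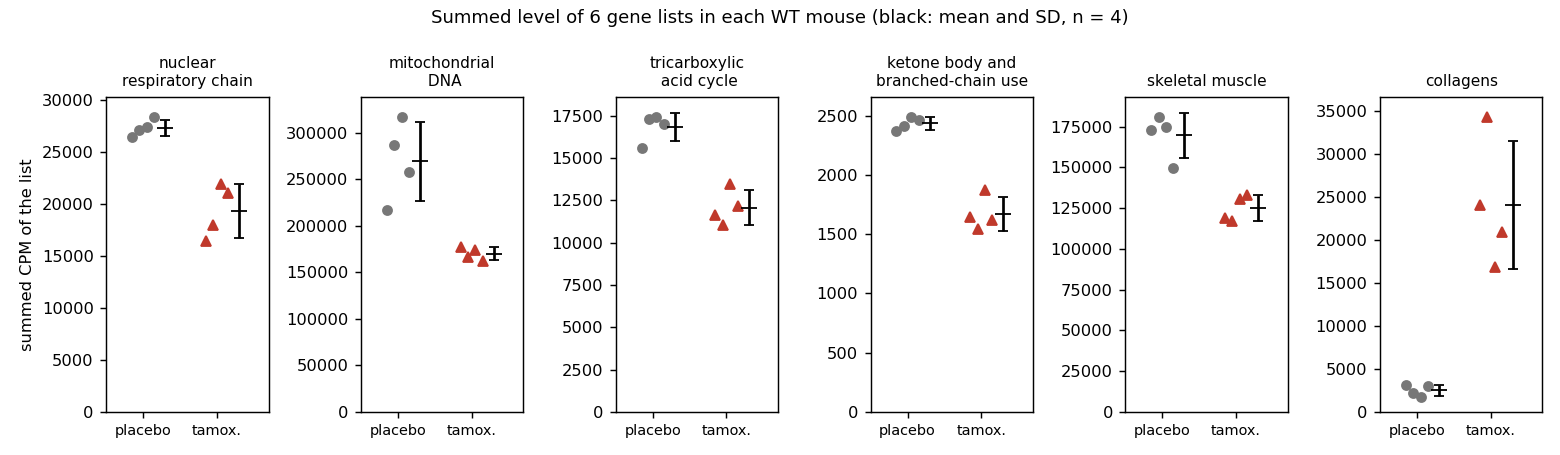
Summed level of 6 gene lists in each WT mouse, in CPM on axes that start at 0, with gray circles for placebo mice, red triangles for tamoxifen mice and black marks for the mean and SD (n = 4). The sums of the 3 lists of nuclear energy genes and of mitochondrial DNA are lower in treated mice, that of muscle markers is lower by a similar share, and the collagen sum is higher.

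The 10 falls with the smallest p included *Pla2g16*, *Ldhd*, *Acss2*, *Ckmt2* and *Acadvl*, and whether fuel genes are more frequent there was not tested. The other fuel genes given here are members of the energy lists. *Pla2g16* (ENSMUSG00000060675), a phospholipase that controls fat breakdown, had 234, 320.5, 289 and 266 CPM in placebo and 85.4, 74.02, 104 and 89.4 CPM in treated mice (log2 fold change −1.65 ± 0.14 SE, adjusted p = 2.37e-05 by edgeR). *Ckmt2* (ENSMUSG00000021622), the mitochondrial creatine kinase of muscle, had 2408, 2922, 2736 and 2864 CPM against 1202, 1245, 1498 and 1144 CPM (log2 fold change −1.10 ± 0.14 SE, adjusted p = 0.000250 by edgeR). *Ldhd* (ENSMUSG00000031958), the dehydrogenase of D-lactate, had 68.2, 72.7, 69.9 and 71.7 CPM against 35.01, 32.3, 40.5 and 44.1 CPM (log2 fold change −0.89 ± 0.10 SE, adjusted p = 0.000177 by edgeR). In all 3 genes the 8 mice split without overlap, and the spread within a group was small. *Lpl*, the lipoprotein lipase that frees fatty acids for uptake, fell from 757 to 836 to 303 to 441 CPM and *Acadvl*, which starts the oxidation of long fatty acids, from 555 to 633 to 329.6 to 377 CPM. *Acss2*, which activates acetate, fell from 50.2 to 53.7 to 24.2 to 31.7 CPM, and *Bdh1*, the first enzyme of ketone body use, from 22.8, 42.3, 31.5 and 62.1 CPM to 11.2, 10.5, 8.29 and 11.9 CPM (log2 fold change −1.91 ± 0.35 SE, adjusted p = 0.00176 by edgeR). *Idh3b* and *Sdhb*, subunits of cycle enzymes, had log2 fold changes of −0.56 and −0.66, and the complex I genes *Ndufa8* and *Ndufs8* of −0.60 and −0.63. *mt-Nd4*, a complex I subunit encoded in the mitochondrion, went from 22219 to 29764 to 15233 to 18171 CPM (log2 fold change −0.66, adjusted p = 0.00134 by edgeR). The other genes with the smallest p among the falls were *Ufsp1*, *Nipal3*, *Pmpcb*, a subunit of the mitochondrial processing peptidase, and the non-coding *Foxo6os* and *Gm10390* (log2 fold changes −1.42, −0.81, −0.58, −1.13 and −1.51).

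The genes with the largest falls included those of the neuromuscular junction. *Chrne* (ENSMUSG00000014609), the adult subunit of the acetylcholine receptor, had 14.4, 24.7, 22.8 and 13.9 CPM in placebo and 8.16, 1.71, 2.59 and 1.07 CPM in tamoxifen mice (log2 fold change −2.42 ± 0.55 SE, adjusted p = 0.00582 by edgeR). *Chrna1*, the subunit that binds acetylcholine, had 17.7, 24.1, 24.6 and 23.7 CPM against 10.2, 4.199, 6.17 and 3.797 CPM (log2 fold change −1.86 ± 0.33 SE, adjusted p = 0.00131 by edgeR), and treated mouse 1 was the highest of the treated mice for both. Without it the log2 fold change of *Chrne* was −3.38. *Ache*, acetylcholinesterase, and *Colq*, the collagen tail that anchors it, fell from 31.8 to 51.9 to 13.5 to 22.2 CPM and from 6.03 to 11.3 to 1.35 to 3.62 CPM. Within the list of 21 denervation and synapse genes 6 fell and 3 rose (median −0.22), against 11.9% and 15.8% of all genes. *Runx1* (ENSMUSG00000022952), a factor induced in denervated muscle and made in bone and blood cells as well, was one that rose, from 2.02, 1.61, 0.949 and 3.66 CPM to 19.9, 26.99, 15.2 and 23.7 CPM (log2 fold change 3.27 ± 0.31 SE, adjusted p = 9.19e-05 by edgeR). *Ncam1*, a neural adhesion molecule that spreads over denervated fibers, rose from 7.82 to 9.62 to 30.5 to 58.8 CPM. Of 11 markers of Schwann cells and nerve 2 rose and none fell, while 8 had a negative log2 fold change and the median was −0.66. Their summed level overlapped between the groups (149 to 224 CPM against 111 to 201 CPM). The remaining large falls were those of the transcription factor genes *Etv5* (log2 fold change −1.58), which acts at the endplate, and *Snai3* (−1.57, and −0.96 without placebo mouse 4), and of the non-coding *Gm37435* (−1.86) and *Gm15408* (−1.62).

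Few fiber genes passed the test. Among 13 slow fiber genes 1 rose, *Atp2a2*, the slow calcium pump, from 34.5 to 49.2 to 65.1 to 77.2 CPM, and none fell. Of 16 fast fiber genes 3 fell, against 11.9% of all genes, and none rose (median −0.42, beside −0.41 for the skeletal muscle markers, a list that shares members with it), namely *Tnnc2*, *Myoz1* and *Myh2* with log2 fold changes of −0.49, −0.52 and −0.88, and the groups overlapped for all 3. All 16 had a negative log2 fold change, and their summed level was 151131 to 190900.0 CPM in placebo and 125324 to 141221 CPM in treated mice, without overlap. Leaving out 1 WT mouse took the call away in 6, 4 and 7 of 8 fits (adjusted p up to 0.0745, 0.0808 and 0.155 by edgeR). Of 27 genes of the triad, where the membrane signal releases calcium, 6 fell and 1 rose (median −0.30), against 11.9% and 15.8% of all genes, with *Stim1*, a calcium sensor, from 320.1 to 341 to 237 to 295 CPM and *Ryr3*, a release channel, from 0.491 to 1.26 to 3.07 to 5.65 CPM. The 6 falls became 1 to 3 without placebo mouse 2, placebo mouse 3, tamoxifen mouse 1 or tamoxifen mouse 2. None of the 9 CNM genes was called. *Dnm2* (ENSMUSG00000033335) was at 63.6, 63.3, 61.03 and 64.4 CPM in placebo and 61.2, 68.2, 59.3 and 61.96 CPM in treated mice (log2 fold change −0.01 ± 0.07 SE, adjusted p = 0.937 by edgeR), and *Mtm1* had a log2 fold change of 0.01 ± 0.18 SE (adjusted p = 0.973 by edgeR). *Bin1* (ENSMUSG00000024381) was lower in all treated mice, 351, 339, 447 and 480.5 CPM against 487, 499, 505 and 508 CPM, without passing the test (log2 fold change −0.31 ± 0.15 SE, adjusted p = 0.137 by edgeR). Of 23 atrophy genes 3 rose and 2 fell, shares below those of all genes (15.8% and 11.9%), with *Cdkn1a*, a cell cycle inhibitor, from 12.96 to 31.7 to 43.5 to 82.4 CPM and *Foxo6* from 8.17 to 8.86 to 2.92 to 4.94 CPM. Of 12 endothelial markers 1 fell and none rose, and 11 had a negative log2 fold change (median −0.42). Of 12 adipocyte markers 2 fell and none rose, and 10 had a negative log2 fold change (median −0.68). Summed levels overlapped between the groups for adipocyte markers (3075 to 4583 CPM against 3446 to 5590.3 CPM), and their part in the falls of fat genes such as *Pla2g16* and *Lpl* was not tested.

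The comparison was repeated within the mice with *Xist* reads and within those with reads of Y-linked genes, 2 against 2 each, with the spread taken from all 16 mice of the cohort. The former gave 3067 genes (19.9%, with 10.9% higher and 8.92% lower) and the latter 1488 (9.64%, with 5.66% higher and 3.98% lower). All 2441 genes that rose in the whole comparison had a positive difference in both kinds of mice, and 1830 of the 1832 that fell had a negative one, directions that the choice of these genes favours. The bone matrix list had a median log2 fold change of 4.21 in mice with *Xist* reads and 4.44 in the others, with 18 and 15 genes called higher. For macrophage markers the medians were 1.49 and 1.17, with 8 and 0 called. For the nuclear respiratory chain they were −0.73 and −0.31, with 61 and 15 lower. Whether the drug acted differently in the 2 kinds of mice was not tested. *C7*, a complement gene named after its values were seen, had 0.821, 7.75, 8.14 and 0.447 CPM in placebo and 0.523, 0.3299, 0.847 and 0.656 CPM in treated mice, so that its placebo level was high in the mice with Y-linked reads alone (log2 fold change −2.73 ± 0.77 SE, adjusted p = 0.0168 by edgeR). That call was lost without placebo mouse 2, placebo mouse 3 or tamoxifen mouse 2 (adjusted p up to 0.0652 by edgeR).

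In *Dnm2* S619L/+ mice, which shared the library protocol but no mice with the WT groups, tamoxifen changed 1277 genes (8.27%), with 5.22% higher and 3.05% lower. The test of the difference between the effects passed for 40 genes (0.259%), 35 of them more positive in WT (0.227%) and 5 more negative (0.0324%). All 4 treated *Dnm2* S619L/+ mice had *Xist* reads against 2 of 4 in each other group, and with a term for *Xist* or Y-linked reads the difference passed for 140 genes. The count of 40 was 1 without tamoxifen mouse 1, 2 without placebo mouse 1 or tamoxifen mouse 2, 5 without placebo mouse 2 or 3, 16 without tamoxifen mouse 4, 25 without tamoxifen mouse 3 and 327 in DESeq2, so the genes given next rest on this fit. Bone genes rose in both genotypes, with 16 of the 23 bone matrix markers called higher in *Dnm2* S619L/+ mice (median 3.19) and none of them differing by the test. *Mmp13* had 0.564, 0.04799, 1.04 and 0.435 CPM in placebo and 460.1, 1016, 1064 and 13.1 CPM in treated *Dnm2* S619L/+ mice, where treated mouse 4 was far below the others. Macrophage markers had a median of 0.01 there with none called, cell cycle genes none, and the respiratory chain 3 lower of 73 (median −0.27), but no member of these lists passed the test of the difference.

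The genes that did differ included *Runx1*, whose log2 fold change of 3.27 in WT stood against 0.58 in *Dnm2* S619L/+ mice (difference 2.70 ± 0.421 SE, adjusted p = 0.0248 by edgeR). *Mt3*, a metallothionein that binds zinc, had 0.618, 0.424, 0.316 and 0.692 CPM in WT placebo and 3.14, 7.11, 1.88 and 3.35 CPM in WT tamoxifen mice, and 24.1, 42.3, 11.2 and 44.6 CPM and 8.89, 4.38, 5.05 and 4.32 CPM in *Dnm2* S619L/+ mice (difference 5.11 ± 0.652 SE, adjusted p = 0.0115 by edgeR). *Gdf11*, a relative of myostatin, rose in WT (log2 fold change 1.31) and fell in *Dnm2* S619L/+ muscle (−1.61, difference 2.91, adjusted p = 0.0169 by edgeR). *Armh4* and *Mpzl3* followed with differences of 1.61 and 1.98. In the opposite direction, *Lpl* fell in WT and had a log2 fold change of 0.06 in *Dnm2* S619L/+ muscle (difference −1.11 ± 0.206 SE, adjusted p = 0.0470 by edgeR), and *Etfdh*, which passes electrons from fatty acid oxidation to the chain, had −0.63 against 0.07 (difference −0.70, adjusted p = 0.0470 by edgeR). *Micall2* did not pass in WT (−0.53) and rose in *Dnm2* S619L/+ muscle (2.42, difference −2.95, adjusted p = 0.0115 by edgeR), and the remaining 2 were *Ccdc9b* and the non-coding *Gm19461*.

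In *Bin1* mck-/- mice the drug changed 464 of 14841 genes (3.13%), 1.52% higher and 1.61% lower. The values are set side by side, since cohort, protocol and genotype differ together and the difference was not tested. Of 14572 genes tested in both cohorts, 27.0% were called in WT and 3.14% in *Bin1* mck-/- muscle. The 139 called in both made up 30.4% of the *Bin1* mck-/- calls and 3.53% of the WT calls, shares near those over all genes, and 109 of them had the same direction, 39 higher and 70 lower. *Flrt1* had 0.977, 0.386, 0.696 and 0.666 CPM in placebo and 36.5, 30.1, 104 and 39.2 CPM in treated *Bin1* mck-/- mice (log2 fold change 6.13, adjusted p = 0.000458 by edgeR), so that treated mice lay above placebo mice in all 3 genotypes. *Gpx3*, a secreted glutathione peroxidase chosen after its values were seen, had 165, 90.4, 97.01 and 81.1 CPM against 1090.2, 1313, 799 and 1053 CPM in WT mice (log2 fold change 3.29 ± 0.38 SE, adjusted p = 0.000245 by edgeR), and log2 fold changes of 2.90 in *Dnm2* S619L/+ and 2.27 in *Bin1* mck-/- muscle. *Ldhd* had nearly the same fall in the 3 genotypes (−0.89, −0.90 and −0.87), and *Pla2g16* fell by 1.65, 0.79 and 1.09 on the log2 scale. *Etv5* had log2 fold changes of −1.58, −1.11 and −1.16. Of 21 denervation and synapse genes 2 were called lower in *Bin1* mck-/- muscle and none higher, against 1.61% and 1.52% of all genes there. *Chrna1* was 1 of them, with log2 fold changes of −1.86 in WT and −1.19 in *Bin1* mck-/- muscle.

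In *Bin1* mck-/- muscle 1 of 14 bone matrix markers tested was higher and 1 lower, against 1.52% and 1.61% of all genes there. Their median log2 fold change was 1.14, and the difference from WT was not tested. *Mmp13* had 0.503, 0.129, 0.0633 and 0.107 CPM in placebo and 1.05, 291, 0.0388 and 0 CPM in treated *Bin1* mck-/- mice, and was high in treated mouse 2 alone (log2 fold change 8.11 ± 3.09 SE, adjusted p = 0.124 by edgeR). Among the 30 genes called in opposite directions was *Spon2*, an extracellular matrix protein, with log2 fold changes of 3.51 in WT and −2.26 in *Bin1* mck-/- muscle. *Cilp*, a cartilage matrix protein, had 1.68 and −2.91, and *Axl*, a receptor kinase of phagocytes, 0.49 and −1.29. These 3 were chosen after their values were seen, the WT value of *Spon2* was 4.20 without placebo mouse 1, and the WT call of *Axl* was lost in 5 of 8 fits without 1 WT mouse (adjusted p up to 0.133 by edgeR). No gene of the respiratory chain or the tricarboxylic acid cycle was called in *Bin1* mck-/- muscle.

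**Figure D4:**
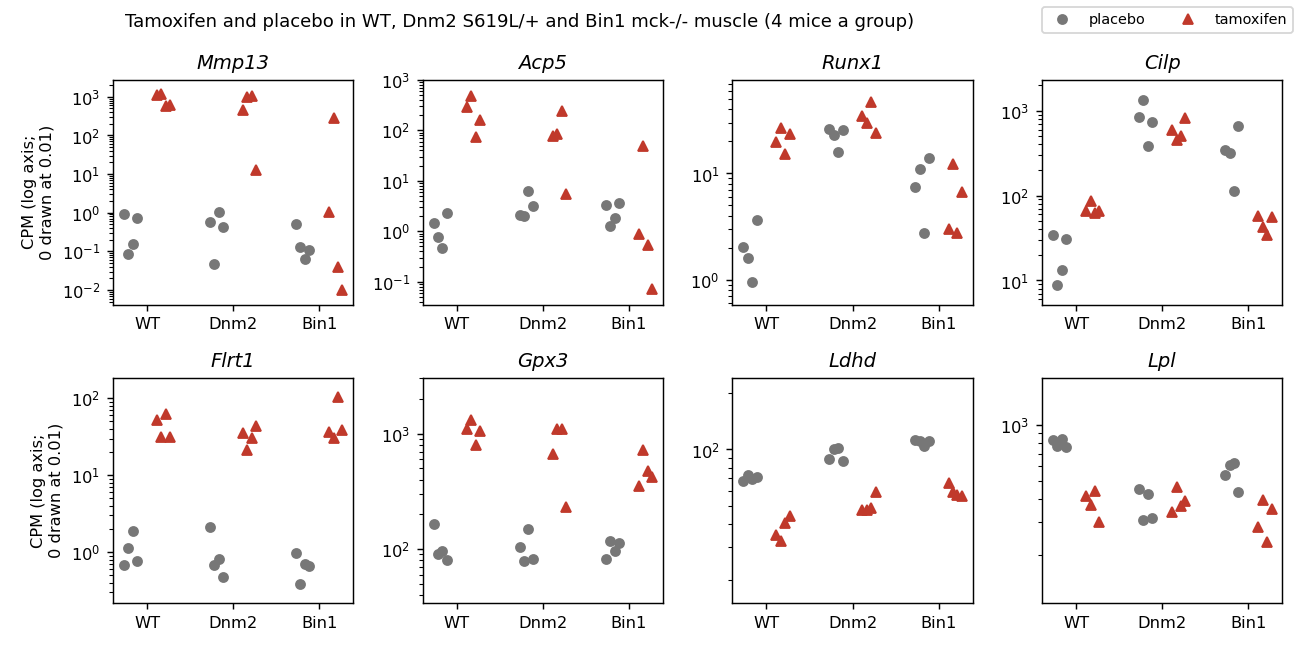
Level of 8 genes in each mouse of 3 genotypes, in CPM on log axes, with gray circles for placebo and red triangles for tamoxifen mice (4 a group) and values of 0 drawn at 0.01. *Flrt1*, *Gpx3* and *Ldhd* moved the same way in WT, *Dnm2* S619L/+ and *Bin1* mck-/- mice, *Mmp13* and *Acp5* were high in most treated mice of the first 2 genotypes and in treated mouse 2 of the last, and *Runx1* rose in WT.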

How the data were processed

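Polyadenylated RNA of TA muscle was sequenced, and the values deposited by the authors are raw whole-number read counts per Ensembl gene for each mouse. Their processing notes name bcl2fastq 2.20.0.422, cutadapt 1.10, Bowtie 1.2.2, STAR 2.5.3, HTSeq 0.6.1p1 and the build mm39. The roles of these tools and whether counting used strand are not given in the sources used here, so overlapping and antisense genes may share reads. Of 55416 gene identifiers 52083 were named through GENCODE M21. Promoters come from RefSeq on GRCm38.p6, and no coordinate was taken over to mm39.

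All 16 mice of the cohort were fitted together, 1 mean per group, with edgeR 4.0.16 in R 4.3.3 (filterByExpr, TMM factors, quasi-likelihood test, Benjamini-Hochberg adjustment over all genes tested, threshold 0.05). Shrinkage of log2 fold changes used 2 prior reads per library on average, and SE values come from the fit. The difference between genotypes was the interaction term of the same fit. *Bin1* mck-/- mice were fitted within their own cohort, where 4 lines that name no gene held 22.0 to 30.8% of the reads and were left out. Mice were grouped by the labels for genotype, treatment and cohort, and no pair of WT replicates agreed within counting noise. The fit was tested on simulated counts.

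The members and the 44 gene lists were chosen with earlier results of these data known. By rule, the genes named were the 10 largest rises and falls among called genes with a mean above 1 on the log2 CPM scale and no overlap of groups, the 10 smallest p in each direction, the 5 smallest p and all marker genes of each list, the 5 smallest p of the interaction in each direction, and *Dnm2*, *Bin1*, *Mtm1*, *Esr1*, *Esr2*, *Gper1* and *Flrt1*. Not all of them are printed, and the lists are given by counts and medians. Alternatives were DESeq2 1.42.0, RLE and upper-quartile scaling, no filter, a filter of more than 10 reads in 90% of mice, the 8 WT mice alone, a replicate block, library sizes without mitochondrial genes, libraries thinned to 15586333 reads and leaving out each WT mouse. A term for *Xist* or Y-linked reads and fits within each kind of mouse were added after seeing the data.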

Additional observations from a re-analysis of the deposited data

Results flagged for a closer look

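In 20 of 288 groups of 4 WT mice, over the named genes tested, 1 mouse lay far from the other 3 by Dixon's criterion, which chance meets in about 1 of 20 groups, and the genes are not independent. In placebo mouse 1 this was *Bglap2* at 0.0203 CPM against 0 in each other, *Chrna1* at 17.7 CPM against 23.7 to 24.6, *Cish* at 61.4 CPM against 3.93 to 5.38 and *Greb1* at 2.83 CPM against 0.474 to 0.736. The same mouse had *Pgr* at 0.0811 CPM against 0 in each other and *Xbp1* at 78.7 CPM against 58.1 to 61.5. In placebo mouse 2 this was *Prss35* at 0 CPM against 0.132 to 0.158. In placebo mouse 4 this was *Col2a1* at 1.07 CPM against 0 to 0.162, *Cthrc1* at 0.916 CPM against 0.253 to 0.316, *Esrrb* at 14.6 CPM against 9.41 to 9.93 and *Fmod* at 128 CPM against 1.08 to 21.1. The same mouse had *Ndufa8* at 228 CPM against 249 to 250.1, *Ppargc1a* at 202 CPM against 50.4 to 62.5 and *Tnmd* at 8.93 CPM against 0.255 to 1.44. In tamoxifen mouse 2 this was *Cdk1* at 2.55 CPM against 1.13 to 1.27 and *Inhbb* at 12.7 CPM against 8.05 to 8.77. In tamoxifen mouse 3 this was *Aurka* at 3.34 CPM against 2.97 to 3.03. In tamoxifen mouse 4 this was *Acadvl* at 329.6 CPM against 370.4 to 377, *Dgat2* at 37.4 CPM against 19.8 to 21.1 and *Spon2* at 4.28 CPM against 15.4 to 17.5.

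The tamoxifen effect in WT mice minus that in *Dnm2* S619L/+ mice passed the interaction test of edgeR for 13 of the genes named here. On the log2 scale the difference was 1.37 for *AC109619.1*, 1.61 for *Armh4*, 2.26 for *Fst*, 2.91 for *Gdf11*, 1.98 for *Mpzl3*, 5.11 for *Mt3*, 2.70 for *Runx1* and 5.13 for *Timp1*, more positive in WT. It was −1.01 for *Ccdc9b*, −0.70 for *Etfdh*, −2.43 for *Gm19461*, −1.11 for *Lpl* and −2.95 for *Micall2*, more negative in WT. The number of genes that pass depended on single mice and on the tool, with the values given under the processing.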

How the results depend on the processing

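No gene called in WT muscle had the other sign under any of the alternatives fitted to both kinds of mice, which called 3417 to 4914 genes without leaving out a mouse and 2769 to 4252 when 1 WT mouse was left out. Within mice with Y-linked reads the count was 1488, and the direction of 1 called gene differed there and of 1 within mice with *Xist* reads. Changes of at least 2-fold numbered 1738, with 1047 under the filter of more than 10 reads in 90% of mice, 848 within mice with Y-linked reads and 1317 to 1832 without 1 WT mouse. Of the 129 genes named here and called, 114 kept their call in each fit without 1 WT mouse and 15 lost it in at least 1. Lists with most members called in 1 direction numbered 15, with 11 to 16 without 1 WT mouse and 6 within mice with Y-linked reads. The difference between genotypes depended on most settings: 40 genes passed, with 327 in DESeq2, 20 with RLE scaling, 16 under the filter of more than 10 reads in 90% of mice, 10 with the replicate block, 3 in thinned libraries, 140 with a term for *Xist* or Y-linked reads and 1 to 40 without 1 WT mouse. It cannot be fitted in the 8 WT mice alone. Of the differences named here, that of *Mt3* passed under all 17 alternatives that gave a value and that of *Micall2* under 16. The cause of these shifts was not tested. With the replicate block 3835 genes were called in WT muscle, and 4 named genes (*Ackr3*, *Cish*, *Cited1* and *Myh2*) lost their call. Deviations of mice with the same number correlated at 0.16, −0.21, 0.13 and 0.03 across genes, so no common pairing by number was seen. This check cannot exclude that some mice shared a litter or cage. No filter left macrophage markers with 4 of 10 rises, and the filter of more than 10 reads in 90% of mice left bone matrix with 8 of 17, osteoclast with 6 of 10, cartilage with 2 of 7, cell cycle with 8 of 14, estrogen receptors and responsive genes with 3 of 5 and FLRT and partners with 4 of 7, since fewer members were tested. Scalings moved the median of all genes by less than 0.1 on the log2 scale, but each of them places most genes near no change. Falls numbered 1944 with RLE and 1842 with upper-quartile scaling, beside 1832 in the main fit. Thinning to the 15586333 reads of the smallest library left 3686 calls among 14260 genes tested.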

Other observations

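Beyond the groups described so far, many genes of the mitochondrial ribosome fell in WT muscle. Families were taken by the start of the gene symbol, after values were seen, and counts here and in what follows stand against 15.8% of all genes that rose and 11.9% that fell. Of 48 *Mrpl* genes, which encode the large subunit of the mitochondrial ribosome, 37 fell and none rose (median log2 fold change −0.46), and of 29 *Mrps* genes of its small subunit 17 fell and none rose (median −0.45), beside a median of −0.41 for the skeletal muscle markers, none of them called. The *Timm* genes of protein import into mitochondria fell in 8 of 14 cases (median −0.36). Of 43 *Rpl* genes of the cytosolic ribosome 1 rose and 1 fell (median 0.00), and none of 28 *Rps* genes was called (median −0.11). The difference between the families was not tested. Pseudogenes can share reads with the last 2 families. Subunits of the proteasome, the *Psm* genes, fell in 5 of 39 cases and rose in 1 (median −0.25).

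The *Pcdhb* cluster of protocadherins, cell adhesion genes known from neurons, rose in 14 of 17 cases, against 15.8% of all genes, with none lower (median 1.31). Their levels were low, with a sum over 22 genes of 8.80 to 10.9 CPM in placebo and 22.4 to 29.6 CPM in treated mice, and these related neighbours can share reads. *Galnt* genes, whose enzymes start O-linked sugar chains, rose in 7 of 14 cases, and *Clec* genes, which encode C-type lectins, in 8 of 20, with none lower in either. *Dusp* genes, phosphatases that act on MAP kinases and other proteins, fell in 8 of 22 cases and rose in 2. Among lipid synthesis genes the desaturases *Fads2* and *Fads1*, which act on polyunsaturated fatty acids, rose from 3.56 to 5.799 to 12.3 to 31.01 CPM and from 6.64 to 10.2 to 18.4 to 30.2 CPM (log2 fold changes 2.29 and 1.37), while *Dgat2*, an enzyme of triglyceride synthesis, fell (log2 fold change −0.88) with groups that overlapped. The fatty acid synthesis list had 2 of 19 higher and 4 lower, and the cholesterol list 1 of 27 higher and 3 lower, the latter no more than the shares of all genes, with *Fdft1*, which makes squalene, from 43.96 to 75.6 to 24.4 to 39.6 CPM. Stress and p53 genes had 5 of 23 higher and 3 lower (3 higher without any 1 of placebo mice 1 to 3 or tamoxifen mice 1 and 2), near the 15.8% and 11.9% of all genes, with *Xbp1*, a factor of the unfolded protein response, from 58.1 to 78.7 to 98.2 to 105 CPM and *Ddit3*, a factor of the same response, from 11.5 to 22.6 to 8.73 to 10.6 CPM.

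The imprinted non-coding RNA *Meg3* belongs to the list of developmental and regenerating fiber genes, of which 2 of 15 rose and 1 fell. It had 87.5, 58.3, 58.9 and 139.7 CPM in placebo and 144, 229, 195 and 222 CPM in treated WT mice (log2 fold change 1.198 ± 0.25 SE, adjusted p = 0.00318 by edgeR), without overlap. *Rian* and *Mirg*, its non-coding neighbours in the same imprinted cluster, chosen after their values were seen, had log2 fold changes of 1.22 and 1.36, and without placebo mouse 4 that of *Rian* was 1.88. In *Bin1* mck-/- mice the log2 fold changes of the 3 genes were 2.59, 2.84 and 3.11. Of 5 lymphocyte markers tested 3 had a negative log2 fold change (median −0.35) and 1 rose, *Cd4*, which macrophages can also make, from 0.316 to 0.651 to 4.04 to 11.6 CPM, and of 12 markers of smooth muscle and pericytes 1 fell, *Cnn1*, from 3.16 to 6.39 to 1.98 to 2.51 CPM. Without 1 WT mouse the calls of *Cnn1* and *Rian* were each lost in 6 of 8 fits and that of *Ddit3* in 1 (adjusted p up to 0.123, 0.110 and 0.0611 by edgeR).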
